A study of Rattus norvegicus with 16 samples.

Results

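The values described here are those of 10 genes of fast-twitch skeletal muscle in RNA from cells retrieved on titanium implants in rat tibiae: Acta1, Ttn, Actn3, Myh4, Mylpf, Tnnt3, Tnnc2, Tnni2, Ckm and Mb. They were chosen by name as a measure of muscle tissue next to the implant, and 8 of the 10 had a row of their own among the 17245 genes that the array annotation named singly. Mylpf, the fast regulatory light chain of myosin, had no row naming it in the annotation used here. The row of Myh4, the fast myosin heavy chain of type IIb fibres, also named a second gene, so neither is given a value.

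Skeletal muscle fibres contract when myosin heads on thick filaments pull on thin filaments of actin, within repeating units called sarcomeres. Calcium released inside the fibre binds the troponin complex on the thin filament and so permits this pull, while creatine kinase and myoglobin help to supply the energy and oxygen it uses. Fast and slow fibres use different genes for many of these proteins, and the genes listed are in bulk tissue best known as products of differentiated muscle fibres rather than of bone, marrow or blood cells.

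Male Sprague Dawley rats received implants of commercially pure titanium with a nanoscale topography, called AT-I, in one tibia, and implants that were microrough with no nanoscale features, called AT-II, in the other. There were 8 rats, 4 for each day of retrieval, and the RNA of the 2 implants of a tibia was pooled into 1 sample. The 4 groups of 4 arrays were AT-I at day 4, AT-II at day 4, AT-I at day 2 and AT-II at day 2, with no implant-free or sham group among them. A flap of skin and muscle was lifted to reach the bone at surgery, and at retrieval the tibia was broken open and the implants rinsed in cold buffer, so the samples hold whatever cells adhered, labelled only as tibial. In such bulk samples, fewer cells of a type and less RNA per cell cannot be told apart.

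Expression is on the log2 scale, so a difference of 1 is a factor of 2, and the array reports a brightness for each gene without a detection call in the values used here. AT-II day 2 replicates 2 and 3 agreed more closely than any of the other pairs among 120: over variable bright rows their values differed with an SD of 0.109, against 0.294 for the next closest pair. Of all 4036 bright rows, 0 differed by more than a factor of 2, against 8. They were averaged and counted as 1 sample, which left 15 samples, and results with 16 separate arrays are given where they differ. Osteoblast and osteocyte genes were present and moved with time: 9 of 10 rose by day 4 on AT-I, where 11.5% of all genes changed, and 8 of 10 on AT-II, where 3.33% did (adjusted p under 0.05, limma). Of the 8 muscle genes 0 passed on either surface, which is not far from those shares of all genes. Arrays also differed in their dimmest signals. The median of 1319 chemosensory receptor genes, a family known mainly from sensory tissues and taken as a measure of low signal after the data were seen, was 5.25 ± 0.48 in AT-I day 4, 4.83 ± 0.30 in AT-II day 4, 5.65 ± 0.38 in AT-I day 2 (SD, n = 4 each) and 4.90 ± 0.28 in AT-II day 2 (SD, n = 3).

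The promoters of Acta1, Ttn and Actn3 are shown because the first 2 genes stood highest above the rest of their group in 1 sample described below, whereas Actn3 did not. The sequences are from RefSeq on the GRCr8 build, from 250 bases before to 50 bases after the start of the gene, all on the minus strand: chr19:68784145-68784444 for Acta1, chr3:82332061-82332360 for Ttn and chr1:211604352-211604651 for Actn3. Capitals mark matches to the E-box CANNTG, which MyoD-family factors are known to bind, to the CArG box of serum response factor and to the MEF2 site, searched on both strands, and no marked matches overlap here.
Acta1: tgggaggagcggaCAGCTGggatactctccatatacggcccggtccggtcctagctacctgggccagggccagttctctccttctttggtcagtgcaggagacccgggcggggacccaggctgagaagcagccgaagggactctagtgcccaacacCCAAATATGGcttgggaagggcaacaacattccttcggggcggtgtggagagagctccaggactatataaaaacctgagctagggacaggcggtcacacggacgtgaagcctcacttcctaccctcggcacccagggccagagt
Ttn: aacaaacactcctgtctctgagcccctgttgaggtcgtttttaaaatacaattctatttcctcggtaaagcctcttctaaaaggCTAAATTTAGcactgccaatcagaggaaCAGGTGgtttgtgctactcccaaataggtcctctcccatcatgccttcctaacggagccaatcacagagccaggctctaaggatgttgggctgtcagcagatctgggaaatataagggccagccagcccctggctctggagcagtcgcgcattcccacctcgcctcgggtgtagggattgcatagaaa
Actn3: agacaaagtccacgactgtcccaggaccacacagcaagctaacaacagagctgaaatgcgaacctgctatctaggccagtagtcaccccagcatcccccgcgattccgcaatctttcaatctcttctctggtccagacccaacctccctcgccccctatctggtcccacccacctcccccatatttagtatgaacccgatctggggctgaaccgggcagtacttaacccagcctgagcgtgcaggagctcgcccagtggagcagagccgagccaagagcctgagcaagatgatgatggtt
Of the 7 measured genes with an entry, 6 held an E-box, as did 72.1% of 33469 promoters of the same length. A CArG box was found in 1 of the 7, Acta1, starting 94 bases before the start of the gene (-94), and in 1.64% of all promoters. A MEF2 site was found in 1 of the 7, Ttn, starting at -166, and in 3.29% of all promoters. The letters CATTCC, known as the core of the TEAD site, were found in 2 of the 7 and in 14.2% of all promoters, and TATAAA in 3 of the 7 and in 14.2%. A match describes these letters only, and binding was not measured.

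Acta1 encodes skeletal alpha-actin, the actin of the thin filament. Its level was 6.45, 6.27, 6.86 and 6.77 in the AT-I day 4 samples, against 6.50, 7.51, 6.47 and 6.33 in the AT-II day 4 samples. On the day 2 arrays it was 7.03, 6.92, 7.36 and 6.98 on AT-I, against 7.27, 6.49, 6.17 and 7.21 on AT-II, where replicates 2 and 3 are the averaged pair. Every AT-I day 4 value lay below every AT-I day 2 value, AT-II day 4 replicate 2 was higher than all other samples, and all other pairs of groups overlapped. Its mean was 6.59 ± 0.28 in AT-I day 4, 6.70 ± 0.54 in AT-II day 4, 7.07 ± 0.19 in AT-I day 2 (SD, n = 4 each) and 6.94 ± 0.52 in AT-II day 2 (SD, n = 3).

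Ttn encodes titin, the giant elastic protein that spans from the Z-disc to the middle of the sarcomere. Its level was 5.31, 4.55, 5.30 and 5.04 in AT-I day 4, against 4.97, 6.20, 5.08 and 4.92 in AT-II day 4. At day 2 it was 5.33, 5.35, 5.31 and 4.63 on AT-I, against 5.21, 5.07, 5.04 and 4.97 on AT-II. The groups overlapped in all comparisons, with AT-II day 4 replicate 2 high above the rest and AT-I day 4 replicate 2 and AT-I day 2 replicate 4 low. A second row of Ttn also had its highest value, 6.12, in AT-II day 4 replicate 2, where the other 15 arrays ran from 4.61 to 5.28. Actn3, the Z-disc alpha-actinin of fast fibres, varied least of the 8 genes. It read 5.13, 5.05, 5.26 and 5.25 in AT-I day 4, against 5.20, 5.24, 5.28 and 5.23 in AT-II day 4. The day 2 values were 5.43, 5.47, 5.28 and 5.54 on AT-I, against 5.36, 4.77, 5.05 and 5.45 on AT-II. The AT-I day 4 values again lay below those of AT-I day 2, and AT-II day 4 replicate 2 was not set apart.

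The 3 troponin genes encode the calcium switch of fast fibres: Tnnc2 the calcium-binding subunit, Tnni2 the inhibitory subunit and Tnnt3 the subunit that anchors the complex to tropomyosin. Tnnt3 was at 6.55, 6.59, 6.43 and 6.63 in AT-I day 4, against 6.50, 7.18, 6.48 and 6.45 in AT-II day 4. Tnnt3 at day 2 was at 6.41, 6.58, 6.43 and 6.35 on AT-I, against 6.62, 6.68, 6.32 and 6.76 on AT-II. Apart from AT-II day 4 replicate 2 its levels stayed in a narrow band that all groups shared. Tnnc2 was at 5.04, 4.59, 4.91 and 5.09 in AT-I day 4, against 5.02, 5.47, 5.02 and 4.99 in AT-II day 4. Tnnc2 at day 2 was at 4.89, 4.90, 5.22 and 5.12 on AT-I, against 5.08, 4.76, 4.71 and 5.10 on AT-II. It too was highest in AT-II day 4 replicate 2, the other samples of that group being close together. Tnni2 was at 4.90, 4.63, 4.70 and 4.90 in AT-I day 4, against 4.99, 5.25, 4.90 and 4.78 in AT-II day 4. At day 2 it was at 5.31, 5.08, 5.32 and 5.00 on AT-I, against 5.17, 5.08, 4.88 and 5.36 on AT-II. The AT-I day 4 values all lay below the AT-I day 2 values.

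Ckm encodes the muscle form of creatine kinase, which regenerates ATP from phosphocreatine, and Mb encodes myoglobin, which binds oxygen in the fibre. Ckm was at 6.13, 5.92, 6.53 and 6.05 in AT-I day 4, against 6.33, 6.57, 5.88 and 6.22 in AT-II day 4. The day 2 samples read 6.89, 6.43, 6.65 and 6.60 on AT-I, against 6.52, 5.50, 5.85 and 6.34 on AT-II. The highest values were on AT-I at day 2 and the lowest in the averaged pair of AT-II day 2, yet all groups overlapped. Mb was at 4.76, 4.46, 5.40 and 5.03 in AT-I day 4, against 5.04, 5.15, 5.43 and 4.60 in AT-II day 4. At day 2 it was at 5.24, 5.27, 4.99 and 5.42 on AT-I, against 5.05, 4.80, 4.57 and 5.11 on AT-II. Its spread within the day 4 groups was wider than any difference between group means.

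**Figure D1:**
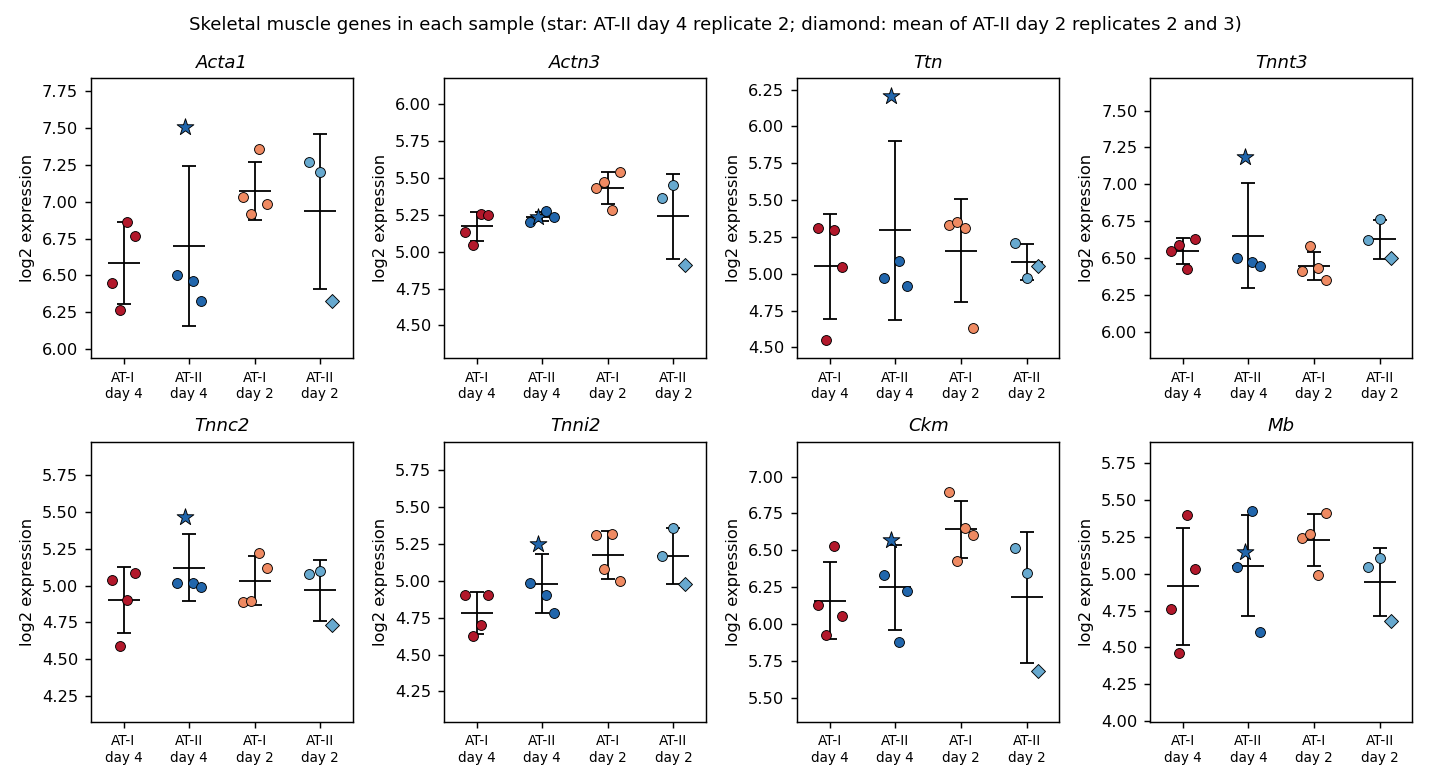
Log2 expression of the 8 measured skeletal muscle genes in each of 15 samples, 1 panel per gene, with the group mean and SD as black bars (n = 4, and 3 for AT-II day 2). The star, AT-II day 4 replicate 2, is the highest point for Acta1, Ttn, Tnnt3 and Tnnc2, and the diamond is the averaged pair of AT-II day 2.

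Over the 15 samples the SD of the 8 genes ran from 0.167 for Actn3 to 0.410 for Acta1, against a median of 0.271 over all genes. The range from lowest to highest sample was a factor of 1.55 for Actn3 and 3.15 for Ttn. Group means were highest in AT-I day 2 for 5 genes, namely Acta1, Ckm, Tnni2, Actn3 and Mb, and highest in AT-II day 4 for Tnnt3, Tnnc2 and Ttn. They were lowest in AT-I day 4 for all but Tnnt3, which was lowest in AT-I day 2. In the comparisons tested, given below, none of the 8 genes passed an adjusted p under 0.05. The smallest was 0.0672 (limma), for Tnni2 between AT-I day 4 and AT-I day 2, the lowest and highest groups of its order. One surface at day 4 was not tested against the other at day 2, so not all neighbours in these orders were compared.

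The clearest feature was a single sample. In AT-II day 4 replicate 2, the level of Ttn was 1.21 above the mean of the other 3 samples of its group on the log2 scale, a factor of 2.32, and that of Acta1 was 1.08 above it, a factor of 2.11. Tnnt3 was 0.71 above, Tnnc2 0.46, Ckm 0.43 and Tnni2 0.36, whereas Mb was 0.12 above and Actn3 was level with the others. Thus 6 of the 8 genes were highest of their group in that sample, as were 29% of all genes, and 4 of the 8 were highest of all 15 samples, as were 7.25% of all genes. By the size of the difference, Ttn ranked 19 and Acta1 ranked 37 among the 17245 genes. Against the chemosensory receptors of the same arrays, whose 95th percentiles ran from 5.58 to 6.27 in the other 3 samples, the Ttn values of 4.92 to 5.08 there lay within the low-signal range, so its factor compares against signal not shown to be above background and can understate a difference in RNA. Acta1 and Tnnt3 lay above that percentile on each of these arrays, and Ckm on replicates 1 and 4 but not 3. Tnnc2, Tnni2, Actn3 and Mb lay below it on each of them. In replicate 2 itself these genes were also below the percentile, which was 6.16 there, so their signal was not shown to be above background. This is a description of 1 sample picked by its values, and 1 sample allows no test.

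**Figure D2:**
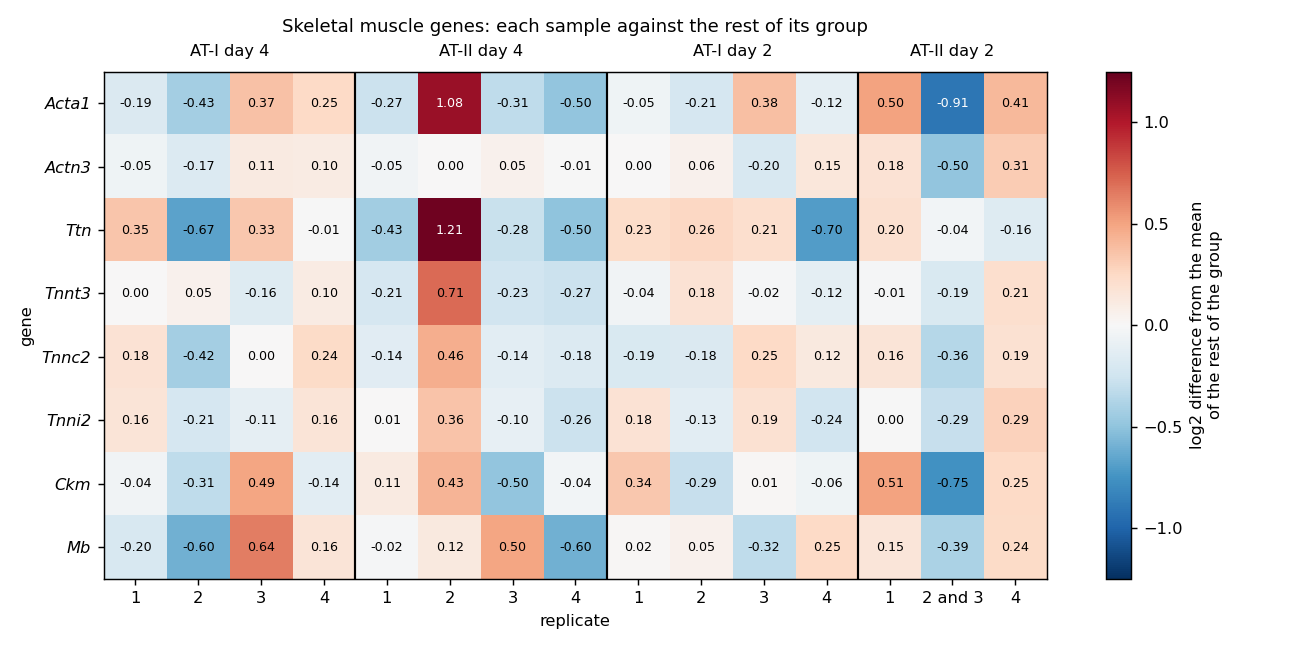
Each square gives, for 1 gene and 1 sample, the log2 difference from the mean of the other samples of the same group, for the 4 groups side by side. AT-II day 4 replicate 2 has the deepest red, up to 1.21 for Ttn, while the averaged AT-II day 2 pair and AT-I day 4 replicate 2 are mostly blue.

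Some other muscle genes were high in the same sample, and others were not. Myl1, the essential light chain of fast myosin, read 6.08 there, while the other 3 samples of the group read 4.73 to 4.99, a difference of 1.18 from their mean. Actc1, cardiac alpha-actin, which regenerating skeletal muscle is also known to express, was at 6.86 against 5.59 to 5.84. Des, the intermediate filament desmin, was at 7.48 against 6.33 to 6.71, and Casq2, the calcium store protein calsequestrin of slow and cardiac fibres, was at 5.87 against 4.84 to 4.94. Lmod3, a leiomodin of the thin filament, was at 5.34 against 4.50 to 4.65. In that sample Actc1 and Des lay above the chemosensory 95th percentile, 6.16. Myl1, Casq2 and Lmod3 lay below that percentile there and in the other 3 samples, so their signal was not shown to be above background. Casq2, Lmod3, Myod1, Myog, Myf5, Myf6, Tagln, Bglap, Phex, Dmp1, Sost, Runx2, Ibsp and Col1a1 are named after their values were seen. The lists as a whole moved less: the median over 21 other sarcomere genes was 0.25 above the rest of the group, with 13 of 21 highest in this sample, against a median of 0.44 for the 8 genes and 0.01 for all genes. The median was 0.17 over 16 genes of excitation-contraction coupling, 0.17 over 12 slow-twitch genes, 0.07 over 13 of energy metabolism and -0.08 over the 7 cardiac genes, the list that holds Actc1. Over 17 myogenic regulators it was 0.06. Among them, factors that direct muscle differentiation went both ways: Myod1 and Myog differed from the rest by -0.31 and -0.39, Myf5 and Myf6 by 0.28 and 0.34. All of these factors read below the chemosensory 95th percentile of that array, 6.16, so their signal was not shown to be above background. Among the genes of these lists with the highest mean, up to 4 per list, differences ran from -0.54 for Pfkm to 1.18 for Actc1. Mylk2 was at -0.47 and Cacnb1 at -0.42, while Des was at 0.90 and Tpm2 at 0.63.

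Markers of other cell types moved in that sample as well. All 8 adipocyte genes were above the mean of the rest of the group, by a median of 0.70, with 7 of 8 highest of the group. The list's mean level was 8.98 in that sample, and over the samples of each group it ran from 7.61 to 8.52 in AT-I day 4, from 8.04 to 8.98 in AT-II day 4, from 7.06 to 8.65 in AT-I day 2 and from 7.85 to 8.62 in AT-II day 2. Of 11 smooth muscle and pericyte genes, 8 were highest of the group, with a median of 0.36, and Tagln, an actin-binding protein of smooth muscle, was 1.24 above the rest. Erythroid genes were lower, all 7 of them, by a median of -1.27 (that is, 1.27 below the rest). The 10 osteoblast and osteocyte genes had a median of -0.11. Among them the bone gene Bglap, osteocalcin, was at 9.31 in that sample against 11.3 to 12.2, the lowest difference of all 17245 genes. Phex differed from the rest by -1.22, Dmp1 by -0.45 and Sost by -0.30. The remaining genes of the list ran from -0.17 for Runx2 to 0.12 for Ibsp, bone sialoprotein, with Col1a1, a chain of type I collagen, at 0.01. The median chemosensory receptor was 0.29 higher. The part of these cell types and of the low-signal level in the muscle values was not tested.

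**Figure D3:**
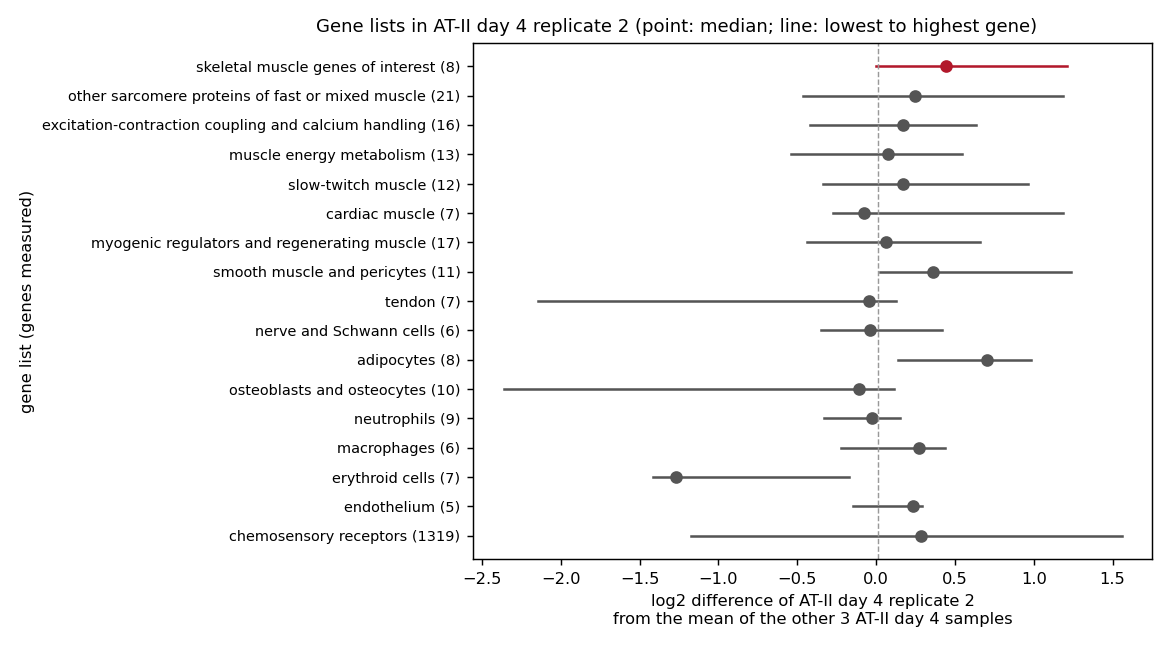
Log2 difference of AT-II day 4 replicate 2 from the mean of the other 3 AT-II day 4 samples, with the median of each gene list as a point, its lowest and highest gene as a line and the median of all genes, 0.01, as a dashed line. The 8 skeletal muscle genes have a median of 0.44, adipocyte genes 0.70 and erythroid genes -1.27.

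Low samples were seen too. AT-I day 4 replicate 2 was lowest of its group for 7 of the 8 genes, as it was for 27.6% of all genes, and lowest of all 15 samples for 5, namely Acta1, Tnnc2, Tnni2, Ttn and Mb, as it was for 7.12% of all genes. Its chemosensory median was 4.72, the lowest of the AT-I day 4 samples, which reached 5.82. The averaged AT-II day 2 pair was lowest of its group for 7 of the 8 genes as it was for 29.6% of all genes, and had the lowest chemosensory median of that group. In AT-II day 4 the 2 did not go together: replicate 4, with a chemosensory median of 4.58, was lowest for 6 of the 8 genes, as it was for 23.9% of all genes, whereas replicate 1 had the lowest median, 4.55, and was lowest for 1 of the 8. Whether the low-signal level sets these muscle values was not tested. Centring each array on its chemosensory median did change the differences between groups, as given below.

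Between the surfaces at day 4, the question was whether the muscle genes differed between AT-I and AT-II, and 0 of 8 passed an adjusted p under 0.05 (limma over all 17245 genes, Benjamini-Hochberg), as did 0% of all genes. At an unadjusted p under 0.05 the counts were 0 of 8 and 3.98% of all genes. All 8 differences, AT-I minus AT-II, were below 0, from -0.24 for Ttn to -0.07 for Actn3, which was at 0.02 with arrays centred on their median. The median of the 8 was -0.13, beside -0.03 for all genes. The smallest adjusted p was 0.913, and the 95% intervals of the 8 genes together covered factors from 0.574 to 1.34. Without AT-II day 4 replicate 2 the sign turned for 4 of the 8, with Acta1 at 0.16 ± 0.21 (SE), Ttn at 0.06, Tnnt3 at 0.08 and Ckm at 0.02. Values below 0 at day 4 therefore rested for these 4 genes on that 1 sample.

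Between the surfaces at day 2, again 0 of 8 genes passed, as did 0% of all genes, while at an unadjusted p under 0.05 the counts were 1 of 8 and 27.3% of all genes. That gene was Ckm, with a mean of 6.64 ± 0.19 on AT-I (SD, n = 4) and 6.18 ± 0.44 on AT-II (SD, n = 3), a difference of 0.46 ± 0.21 (SE, adjusted p = 0.174 by limma). The AT-II mean was drawn down by the averaged pair, at 5.68, against 6.52 in replicate 1 and 6.34 in replicate 4. On AT-I at day 2, Ckm lay above the chemosensory 95th percentile only in replicate 2. In the other AT-I day 2 samples its signal was not shown to be above background. Of the other 7 differences, 6 were above 0, up to 0.29 for Mb, of which 5 were below 0 with quantile normalization repeated, and Tnnt3 was at -0.18. With 16 arrays counted separately 0 of 8 passed as well, although 12.7% of all genes then did. Ckm passed under 3 of 32 alternatives, one of them array weights over the 15 samples, at 0.62 (adjusted p = 0.0415 by limma). The others were fits over 16 arrays with the replicate number as a block, in which the averaged pair counts as separate arrays. The adjusted p of Ckm over all 32 ran from 0.035 to 0.997. The median of the 8 was 0.11, beside -0.09 for all genes and 0.73 for the chemosensory receptors, whose level was higher on AT-I. With each array centred on its chemosensory median, a setting added after the data were seen, all 8 differences were below 0, from -0.94 for Tnnt3 to -0.29 for Ckm, and 3 passed: Tnnt3, Tnnc2 and Tnni2. That centring takes the same amount from the difference of every gene, which took the median of all genes to -0.84, and 8482 of 17245 genes passed. The turn in sign of the muscle genes is that shift and is not particular to them, and their direction at day 2 is relative to the scale chosen. With that median as a covariate instead, Ckm was at 0.11 and 0 of 8 passed. The 95% intervals covered factors from 0.695 to 1.88.

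On AT-I, day 4 was set against day 2 to see whether the muscle genes moved with time, and 0 of 8 passed, where 11.5% of all genes did. At an unadjusted p under 0.05 the counts were 3 of 8, namely Tnni2, Ckm and Actn3, and 27.9% of all genes. Tnni2 averaged 4.78 ± 0.14 at day 4 and 5.18 ± 0.16 at day 2 (SD, n = 4 each), a difference of -0.39 ± 0.13 (SE, adjusted p = 0.0672 by limma). On every AT-I array Tnni2 lay below the chemosensory median of that array, so its signal was not shown to be above background. Ckm differed by -0.49 ± 0.19 (SE, adjusted p = 0.119), Acta1 by -0.49 ± 0.25 (SE, adjusted p = 0.223) and Actn3 by -0.26 ± 0.12 (SE, adjusted p = 0.171), all by limma. Actn3 lay below the chemosensory 95th percentile of every AT-I array, so its signal was not shown to be above background either. Ckm lay above that percentile only in AT-I day 2 replicate 2 and AT-I day 4 replicate 2. Acta1 lay below it in AT-I day 2 replicate 1 and AT-I day 4 replicates 1 and 3. The days did not overlap for 3 of the 8, Acta1, Actn3 and Tnni2, as was so for 15.3% of all genes. The median was -0.29, beside -0.05 for all genes and -0.41 for the chemosensory receptors. With arrays centred on the chemosensory median, Tnni2 was at 0.01, Actn3 at 0.14, and Acta1 and Ckm both at -0.08. A single call appeared under 3 other settings: for Ckm without AT-I day 4 replicate 3 (-0.61) and with quantile normalization repeated (-0.63), and for Tnni2 with arrays centred on their median (-0.55). The 95% intervals covered factors from 0.491 to 1.36.

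On AT-II, 0 of 8 genes passed between day 4 and day 2, where 3.33% of all genes did, and 0 of 8 had an unadjusted p under 0.05, where 13.0% of all genes did. Differences ran from -0.23 for Acta1 to 0.22 for Ttn, with a smallest adjusted p of 0.666, and their median of 0.05 stood beside -0.05 for all genes. The direction flipped with arrays centred on their median for Ckm, at -0.04, and for Tnnt3, at -0.08. Without AT-II day 4 replicate 2, Acta1 was at -0.50 ± 0.23 (SE, adjusted p = 0.399 by limma) and Ttn at -0.09. The 95% intervals covered factors from 0.567 to 1.76. The change with time did not pass a test of the difference between surfaces for any of the 8 genes, as for 0% of all genes, and the counts at an unadjusted p under 0.05 were 0 of 8 and 4.10% of all genes. The largest such difference was that of Ckm, -0.55 ± 0.29 (SE, adjusted p = 0.924 by limma), with a 95% interval from -1.16 to 0.05.

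**Figure D4:**
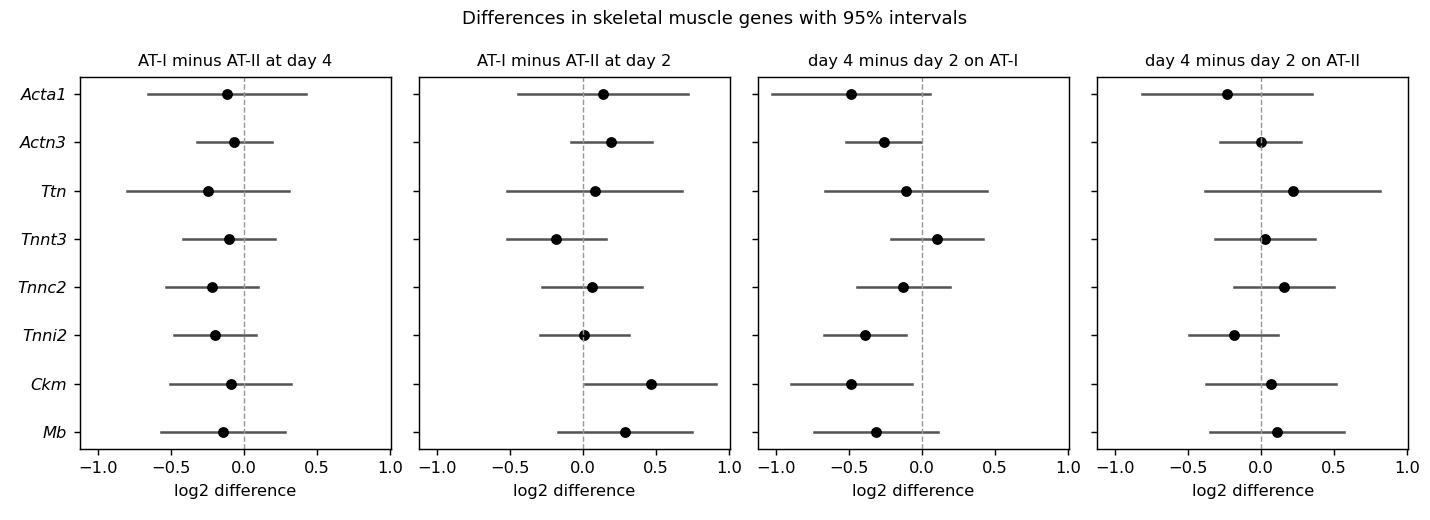
Log2 differences of the 8 skeletal muscle genes with 95% intervals from limma for AT-I minus AT-II at day 4 and day 2, and for day 4 minus day 2 on AT-I and on AT-II. No gene passed an adjusted p under 0.05 in any panel, and the day 2 panel, with 7 of 8 points above 0, has all 8 below 0 when arrays are centred on the chemosensory median, which shifts all genes alike.

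The wider muscle programme was read from 6 further lists of 105 genes, of which 86 were measured. Between the surfaces, 0 of 86 passed at either day. With time on AT-I, 5 rose and 4 fell, which is 10.5% of the 86 and close to the 11.5% of all genes, and on AT-II 2 rose, which is 2.33% and close to 3.33%. By list on AT-I, myogenic regulators and genes of regenerating muscle had the most calls, with 3 of 17 rising and 1 falling. The median of that list was below 0, at -0.21 beside -0.05 for all genes, so the list as a whole did not rise. Of the other lists, 1 of 21 other sarcomere genes rose, 2 of 16 genes of excitation-contraction coupling fell, 1 of 13 of energy metabolism rose, 0 of 12 slow-twitch genes moved and 1 of 7 cardiac genes fell. On AT-II both genes that rose were among the 17 myogenic regulators, whose median was -0.01 beside -0.05 for all genes. Whether any list differs from genes at large was not tested.

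The genes that rose with time on AT-I were led by Cdh15 and Mef2c. Cdh15, M-cadherin, an adhesion protein of satellite cells, rose by 1.29 ± 0.29 (SE, adjusted p = 0.00914 by limma), with a mean of 6.97 at day 4 and 5.68 at day 2. Mef2c, a transcription factor of muscle that bone, endothelial and immune cells also use, rose by 1.03 ± 0.14 (SE, adjusted p = 0.000192 by limma), with a mean of 9.54 at day 4 and 8.51 at day 2. Both also rose on AT-II, by 1.23 ± 0.31 and 0.75 ± 0.15 (SE), though Cdh15 on AT-II lost its call under 14 of 31 alternatives. Ncam1, a cell adhesion molecule of satellite and nerve cells, rose by 0.90 ± 0.25 on AT-I, Tpm1, a tropomyosin also found outside muscle, by 0.64 ± 0.14, and Phka1, a subunit of phosphorylase kinase, by 0.58 ± 0.13 (SE). Ncam1 lost its call under 7 of 31 alternatives, Phka1 under 2 and Cdh15 on AT-I under 1, and Tpm1 and Mef2c on AT-I under 0. Mef2c on AT-II lost its call under 2. With arrays centred on the chemosensory median, Cdh15, Mef2c, Ncam1 and Tpm1 still passed on AT-I. Phka1 on AT-I, at 0.985, and Mef2c and Cdh15 on AT-II, at 0.82 and 1.30, did not.

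The genes that fell on AT-I were Pvalb, the calcium buffer parvalbumin, by 0.73, Myh6, a cardiac myosin heavy chain, by 0.57, Pax7, a transcription factor of satellite cells, by 0.48, and Jsrp1, a protein of the junctional sarcoplasmic reticulum, by 0.40. Pvalb, Myh6 and Pax7 are named after their values were seen. All 4 genes lay below the chemosensory 95th percentile of every AT-I array, so their signal was not shown to be above background. With arrays centred on the chemosensory median none of the 4 passed, with Pvalb at -0.32, Myh6 at -0.17, Pax7 at -0.07 and Jsrp1 at 0.00. Jsrp1 lost its call under 15 of 30 alternatives, Pax7 under 4, Myh6 under 3 and Pvalb under 2.

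The genes whose pattern over samples was most like the mean of the 8 muscle genes were ranked by Pearson's r over 15 samples, which share a day and surface in groups and the low-signal level of their arrays. Myl1 came first with r = 0.916, followed by Spx, Lrrc2, Col5a3, Plppr4, Wdr38, Piwil1, Atp6v1g2, Sprr1b and Dlx4, down to r = 0.785. Without AT-II day 4 replicate 2, Myl1 ranked 7 with r = 0.874 and Cnga3 came first with r = 0.892. For deviations from group means, Ubxn10 came first with r = 0.916 and Myl1 second with r = 0.902. The chemosensory receptors had a median r of 0.457 with the muscle mean over 15 samples and 0.608 without that sample. Among the 28 pairs of the 8 muscle genes themselves, the median r was 0.502, the highest was that of Acta1 and Tnni2, 0.783, and the lowest that of Tnnt3 and Actn3, -0.066. These are descriptions of 15 points, and without AT-II day 4 replicate 2 the median over pairs was 0.425.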

How the data were processed

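Total RNA from the retrieved cells was measured on 16 arrays of the type Affymetrix Rat Gene 1.1 ST, as the labels' protocols state. According to the submitters' processing notes, RMA in Affymetrix Expression Console made the deposited values, which are read here as log2 expression. That the base is 2 is an inference from RMA, on which every difference and factor rests. Which versions, filters and build were used is not given in the sources used here.

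The platform annotation named the rows, and gene identifiers were checked against the RefSeq table of GRCr8. Of 29214 rows, 18644 named 1 gene, 962 several and 9608 none, and a gene's row with the highest mean was used. Sample titles gave the groups. No label links a replicate number to a rat, although each rat carried both surfaces, and p-values measure the spread between these samples. The number of arrays limits the precision.

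All 17245 genes were fitted in limma 3.58.1 under R 4.3.3 with 1 mean per group, by lmFit followed by eBayes. Tests were two-sided and adjusted by Benjamini-Hochberg, with a threshold of 0.05. The fit had 11 residual and 4.44 prior degrees of freedom and was checked on simulated data. Intervals are at 95%. Other calculations used Python 3.11.15, pandas 2.3.3 and matplotlib 3.10.9.

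Genes named were the listed muscle genes, up to 4 genes of each other muscle list with the highest mean, and the 10 with the most similar pattern, with exceptions named in the text. The muscle genes and lists were chosen with earlier results of these data known. Altogether 32 other settings were run, of which 30 were planned and 2, using the chemosensory receptors, were added after the data were seen.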

Additional observations from a re-analysis of the deposited data

Results flagged for a closer look

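Samples far from the rest of their group were sought for the 8 muscle genes, the highest-mean genes of the other muscle lists, and Myl1, which was added after its values were seen. Of 99 combinations of gene and group of 4 samples, 11 had an extreme sample whose gap to the nearest other, as a share of the group's range, exceeded Dixon's 95% critical value. Chance gives about 1 in 20 for a single check. Many of these flags share 1 sample, and the genes were chosen with earlier results known, so the count cannot be tested against that rate. In AT-II day 4 replicate 2, Acta1 was at 7.51, against 6.33 to 6.50 in the other 3 samples, Tnnt3 at 7.18 against 6.45 to 6.50, Tnnc2 at 5.47 against 4.99 to 5.02 and Ttn at 6.20 against 4.92 to 5.08. In the same sample Tnnt1, the slow troponin T, was at 5.87 against 5.68 to 5.69, and Cacnb1, a calcium channel subunit, was low at 5.53 against 5.92 to 5.99. Ttn was low in AT-I day 2 replicate 4, at 4.63 against 5.31 to 5.35. Cacnb1 was low in AT-I day 4 replicate 3, at 5.36 against 5.59 to 5.62, and in AT-I day 2 replicate 1, at 5.43 against 5.87 to 5.92. Myl3, a slow myosin light chain, was high in AT-I day 2 replicate 3, at 6.20 against 5.33 to 5.46, and Tnnt2, cardiac troponin T, was low in AT-I day 2 replicate 2, at 5.73 against 6.39 to 6.47.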

How the results depend on the processing

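All 5 comparisons gave 0 calls among the 8 genes, and 32 alternatives gave 1231 values, of which 7 gained a call in the same direction and 85 turned sign, 2 of them with a call. Counts of calls between surfaces at day 2 were 1 (Ckm) with array weights, 1 with the replicate block over 16 arrays and 1 with the number as a fixed replicate block over 16 arrays, at 0.62, 0.59 and 0.59 (adjusted p = 0.0415, 0.035 and 0.049 by limma), and 3 with arrays centred on the chemosensory median. With time on AT-I they were 1 with arrays centred on their median and 1 with quantile normalization repeated, and from 0 to 1 leaving out a sample. The paired fits with the averaged pair numbered 2 or 3 made 0 calls. Same-numbered samples of the surfaces correlated between -0.339 and 0.642 in their deviations, so the numbers were not taken to pair them. Differences that turned sign were these. Centring on the chemosensory median gave between surfaces at day 2 Acta1 -0.62, Ckm -0.29, Tnnc2 -0.69, Tnni2 -0.75, Actn3 -0.56, Ttn -0.68 and Mb -0.47, and with time on AT-I Tnnc2 0.28, Tnni2 0.011, Actn3 0.14, Ttn 0.30 and Mb 0.089, and with time on AT-II Actn3 0.067, and in the test of the change between surfaces Acta1 0.082, Tnnc2 0.051, Tnni2 0.13, Actn3 0.075 and Ttn 0.010. That median as a covariate gave between surfaces at day 2 Acta1 -0.32, Tnnc2 -0.14, Tnni2 -0.15, Ttn -0.37 and Mb -0.054, and with time on AT-I Ttn 0.13, and with time on AT-II Actn3 0.004. The interquartile range as a covariate gave between surfaces at day 2 Acta1 -0.38, Tnnc2 -0.17, Tnni2 -0.15, Ttn -0.35 and Mb -0.14, and with time on AT-I Tnnc2 0.030 and Ttn 0.18, and with time on AT-II Actn3 0.005, and in the test of the change between surfaces Acta1 0.054. Repeated quantile normalization gave between surfaces at day 2 Tnnc2 -0.23, Tnni2 -0.28, Actn3 -0.089, Ttn -0.20 and Mb -0.002, and with time on AT-I Tnnt3 -0.020, Tnnc2 0.098 and Ttn 0.095, and with time on AT-II Ckm -0.069, Tnnt3 -0.071 and Actn3 0.035. Centring on the median gave between surfaces at day 4 Actn3 0.019, and with time on AT-I Tnnt3 -0.054, and with time on AT-II Ckm -0.038 and Tnnt3 -0.082. Array weighting gave between surfaces at day 2 Tnni2 -0.012 and Ttn -0.072, and with time on AT-I Ttn 0.14, and with time on AT-II Tnnt3 -0.014 and Actn3 0.10, and in the test of the change between surfaces Ttn 0.018. AT-II day 2 replicate 2 alone, in place of the averaged pair, gave between surfaces at day 2 Tnni2 -0.026, and with time on AT-II Tnnt3 -0.035 and Actn3 0.043. Counting 16 arrays separately gave with time on AT-II Actn3 0.080. The replicate block over 16 arrays gave with time on AT-II Actn3 0.080. The replicate block with the averaged pair numbered 2 gave between surfaces at day 2 Tnni2 -0.006, and with time on AT-II Actn3 0.011. Leaving out the averaged pair gave between surfaces at day 2 Acta1 -0.16, Tnnc2 -0.055 and Tnni2 -0.089, and with time on AT-II Ckm -0.18, Tnnt3 -0.040 and Mb -0.020, and in the test of the change between surfaces Acta1 0.050. Leaving out each other sample in turn gave ranges across 0 between surfaces at day 2 for Tnni2 (-0.040 to 0.10), between surfaces at day 4 for Acta1 (-0.24 to 0.15), Ckm (-0.21 to 0.016), Tnnt3 (-0.17 to 0.075), Ttn (-0.37 to 0.059) and Mb (-0.30 to 0.009), with time on AT-I for Ttn (-0.28 to 0.060), with time on AT-II for Ckm (-0.038 to 0.24), Tnnt3 (-0.15 to 0.093), Actn3 (-0.016 to 0.10), Ttn (-0.087 to 0.34) and Mb (-0.013 to 0.26), in the test of the change between surfaces for Acta1 (-0.42 to 0.017). The cause was not tested. All-gene counts ranged over the alternatives from 0 to 8482 at day 2, 729 to 2954 with time on AT-I and 84 to 1228 on AT-II. The scale of dim signals and the lack of detection calls limit what can be said of genes this dim.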
